A study of Mus musculus with 8 samples.

Results

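Endothelial-to-mesenchymal transition is a change in which endothelial cells lose junctional and vascular genes and take on genes of fibroblast-like or smooth-muscle-like cells. It is driven by repressors of the SNAIL, TWIST and ZEB families, often downstream of TGF-beta, and in the pulmonary artery it has been linked to vessel remodelling in pulmonary hypertension. Described here are 9 genes commonly used to mark it, of 23238 gene symbols in the count tables. They are the transcription factors Snai1, Snai2, Twist1, Zeb1 and Zeb2, the intermediate filament gene Vim, the matrix gene Fn1, the cadherin gene Cdh2 and the calcium-binding protein gene S100a4. They were chosen by name, not by level, and all 9 have a row in every table.

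Ribosome-bound RNA of lung endothelium was counted in 8 libraries of C57BL/6J mice, 4 in each group. Control mice carried Cdh5-CreERT2 and RPL22tm1.1Psam and breathed room air. The other mice carried Cdh5-CreERT2, Sox17fl/fl and RPL22tm1.1Psam and were kept in hypoxia. Cdh5-CreERT2 is a tamoxifen-inducible recombinase under an endothelial promoter, and RPL22tm1.1Psam (RiboTag) lets cells in which the recombinase has acted make ribosomes with a haemagglutinin epitope. Tamoxifen was given to all mice at 8 weeks of age, 2 mg on each of 5 days. From 10 weeks they spent 3 weeks in their air condition. The control mice thus had the recombinase and tamoxifen too, but no floxed Sox17. Loss of Sox17, a transcription factor of arterial endothelium, and low oxygen differ together and cannot be told apart. The sources used here do not say whether each library came from its own animal. The deposited tables of hypoxic Sox17-deleted libraries 2, 3 and 4 have names with a common stem, and the spread behind every p-value is that between libraries, which could be technical.

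Library totals ran from 7000313 to 12913304 counts, and 3 counts, the smallest number set apart from 0, were worth 0.232 to 0.429 CPM (each count over its library total, on the usual per-million scale). Sox17 had 205 to 291 CPM in controls and 0.857 to 36.6 CPM in the hypoxic Sox17-deleted libraries, where library 1 kept the most (log2 fold change −4.39, SE 1.01, edgeR adjusted p = 0.346). Without a filter on low counts Sox17 was among the 17 genes called (log2 fold change −4.38, edgeR adjusted p = 0.00538). Endothelial identity genes, 20 of 20 of them abundant enough to test, came to 16022 ± 740 CPM in controls against 15446 ± 2983 CPM in hypoxic Sox17-deleted libraries (SD, n = 4). Hypoxic Sox17-deleted library 4 was lowest at 11029 CPM. Fewer genes had a count in the hypoxic Sox17-deleted libraries (8019 to 8708, against 9821 to 10429), which bears on every low gene below.

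Promoters from RefSeq (build GRCm38.p6) were examined for 5 of the 9 genes: Snai1, Twist1, Zeb2, Vim and S100a4. Those of Zeb1, Snai2, Fn1 and Cdh2 were left out, which does not mean that RefSeq lacks them. No statement on motifs below covers these left-out genes. Of the 5 examined, the 250 bases before the RefSeq start are shown for the 4 with a motif that bears on the comparison or on transcription start. For Vim this window lies inside the gene as GENCODE places it, from 13573927, because the RefSeq start is further downstream. Capitals mark matches to the E-box CACCTG bound by SNAIL and ZEB repressors, the SOX core AACAAT and the hypoxia response core ACGTG, each on both strands, and to the TATA box TATAAA on the gene's strand. No matches overlap.
Vim (chr2:13574061-13574310, plus strand): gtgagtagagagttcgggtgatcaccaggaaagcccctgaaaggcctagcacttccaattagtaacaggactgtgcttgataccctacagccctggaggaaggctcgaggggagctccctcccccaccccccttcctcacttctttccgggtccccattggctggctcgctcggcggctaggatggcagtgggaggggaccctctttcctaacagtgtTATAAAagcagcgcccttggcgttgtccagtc
Snai1 (chr2:167537945-167538194, plus strand): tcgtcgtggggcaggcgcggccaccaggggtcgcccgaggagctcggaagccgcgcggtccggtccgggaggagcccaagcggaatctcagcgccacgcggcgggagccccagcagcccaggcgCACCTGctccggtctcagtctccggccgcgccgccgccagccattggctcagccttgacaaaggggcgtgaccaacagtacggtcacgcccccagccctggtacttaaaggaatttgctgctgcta
Twist1 (chr12:33957421-33957670, plus strand): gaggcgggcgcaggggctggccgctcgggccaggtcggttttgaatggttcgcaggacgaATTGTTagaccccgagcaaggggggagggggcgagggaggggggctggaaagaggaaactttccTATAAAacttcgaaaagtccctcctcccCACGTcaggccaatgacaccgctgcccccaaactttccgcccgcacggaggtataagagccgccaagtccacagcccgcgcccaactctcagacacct
S100a4 (chr3:90603520-90603769, plus strand): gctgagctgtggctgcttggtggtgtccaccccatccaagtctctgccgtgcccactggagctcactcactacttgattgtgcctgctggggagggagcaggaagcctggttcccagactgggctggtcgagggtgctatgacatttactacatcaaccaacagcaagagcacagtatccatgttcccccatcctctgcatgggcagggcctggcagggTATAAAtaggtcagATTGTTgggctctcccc

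The TATA box lies 32 bases before the start in Vim, 31 in S100a4 and 126 in Twist1, where 7.60% of 32817 promoter windows of this length have one. The E-box of Snai1 lies 126 bases before the start, and 17.2% of windows hold one. The SOX core is found 190 bases before the start of Twist1 and 17 before that of S100a4 (9.42% of windows), and the hypoxia core 98 bases before that of Twist1 (16.6%). The 4 Zeb2 start sites in the table hold none of these letters in the same window. A match describes the sequence and does not show that a factor binds there.

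Vim was by far the most abundant of the 9 genes, Zeb1 came next, and no gene of the set was set apart between the groups by the test. Of the 9, Vim, Zeb1, Zeb2 and Fn1 passed the expression filter, and 0 of those 4 had an edgeR adjusted p under 0.05. Over all 8282 genes tested the count was also 0 (0%), while 424 (5.12%) had an unadjusted edgeR p under 0.05, none of them a member. DESeq2 called 473 genes over the whole table (5.06%), limma-voom 44 (0.531%) and edgeR without a filter 17 (0.121%), and none of these was a member. Of the 4, Vim, Zeb2 and Fn1 had a log2 fold change above 0 and Zeb1 one below it, where 49.6% of all tested genes were above 0, and the sign of Vim turned with upper-quartile scaling. For 0 of the 4 tested members did the groups fail to overlap in CPM, where 1.63% of all tested genes lay wholly higher and 4.96% wholly lower in the hypoxic Sox17-deleted libraries. Because each transcript gives about 1 tag at its 3′ end whatever its length, levels of different genes can be set side by side without division by length.

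**Figure D1:**
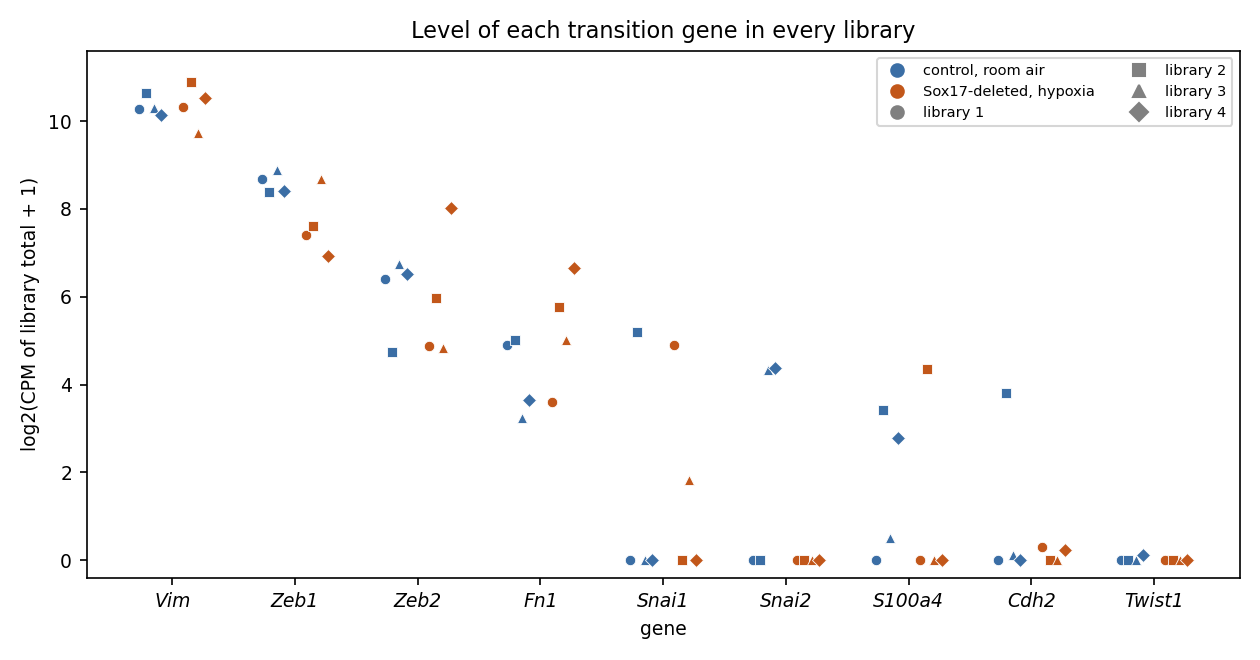
Level of the 9 genes in each library, as log2(CPM of library total + 1), with a point for every library, coloured by group and shaped by library number. Vim and Zeb1 stand high in all 8 libraries, Zeb2 and Fn1 vary between libraries of a group, and the other genes are at or near 0 in most libraries and above it in 1 to 3, except Twist1, which is near 0 in all 8.

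Vim encodes vimentin, the intermediate filament protein of mesenchymal cells, which endothelial cells also make in quantity at rest. The gene lies on chromosome 2, 13573927 to 13582826, plus strand (GRCm38). It had 1240.1, 1592, 1253 and 1124 CPM in control libraries 1 to 4 and 1282, 1890.1, 845 and 1481 CPM in hypoxic Sox17-deleted libraries 1 to 4. The hypoxic Sox17-deleted group held both the highest and the lowest library, and the control range lay inside it. Means were 1302 ± 201 and 1375 ± 434 CPM (SD, n = 4), which ranked Vim 76th and 70th of all symbols in the respective group. The log2 fold change, hypoxic Sox17-deleted over control, was 0.07 (SE 0.30, edgeR adjusted p = 1.00). Its 95% interval of −0.57 to 0.71 still allows a level from 0.675 to 1.64 times that of the controls. Vim made up 67.3% to 78.1% of all counts of the 9 genes in controls and 64.3% to 85.1% in the hypoxic Sox17-deleted libraries.

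Zeb1 and Zeb2 encode paired zinc-finger and homeodomain repressors that bind E-boxes and silence E-cadherin in epithelial cells. Zeb1 (chromosome 18, 5591860 to 5775467, plus strand) had 409, 331, 475 and 338 CPM in the controls. The hypoxic Sox17-deleted libraries had 167, 195, 407 and 120.0 CPM. Libraries 1, 2 and 4 of that group lay below every control, and library 3, the shallowest of the 8, lay among them. Means were 388 ± 67.6 and 222 ± 127 CPM, with a log2 fold change of −0.74 (SE 0.44, edgeR adjusted p = 1.00, 95% interval −1.68 to 0.20). Without hypoxic Sox17-deleted library 3 it was −1.30, at an edgeR p of 0.00210 and an adjusted p of 0.392. In that fit 9.02% of 9127 genes had an unadjusted edgeR p under 0.05. With any other single library left out, the edgeR p of Zeb1 was 0.137 to 0.261. The direction was downward in all 18 alternatives to the main fit, and no adjusted p was lower than 0.254.

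Zeb2 (chromosome 2, 44983632 to 45117395, minus strand) had 84.2, 25.8, 107 and 89.9 CPM in controls and 28.3, 62.1, 27.7 and 259 CPM in the hypoxic Sox17-deleted libraries. Library 4 of the hypoxic Sox17-deleted group stood above all others, and the other 3 lay within the control range. The means of 76.8 ± 35.3 and 94.2 ± 111 CPM gave a log2 fold change of 0.28 (SE 0.85, edgeR adjusted p = 1.00). Without that library it was −0.94 (edgeR adjusted p = 1.00), so the sign rests on library 4. The antisense gene Zeb2os overlaps Zeb2 but not its annotated 3′ end, where the reads were made. Zeb1 made up 79.0% to 92.8% of the counts of the ZEB pair in the controls. In the hypoxic Sox17-deleted libraries that share was 85.5%, 75.9% and 93.6% in libraries 1 to 3 and 31.7% in library 4, where Zeb2 was the more abundant.

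Fn1 encodes fibronectin, a matrix glycoprotein that fibroblasts secrete and that endothelium can deposit. It lies on chromosome 1, 71585520 to 71653200, minus strand. It had 29.0, 31.5, 8.51 and 11.5 CPM in controls and 11.2, 53.7, 31.3 and 99.6 CPM in the hypoxic Sox17-deleted libraries. Libraries 2 and 4 of the hypoxic Sox17-deleted group stood above every control, and library 1 lay near the lowest of them. Means were 20.1 ± 11.8 and 49.0 ± 38.0 CPM, with a log2 fold change of 1.25 (SE 1.36, edgeR adjusted p = 1.00, 95% interval −1.68 to 4.18). The spread within a group was thus wide for this gene, with a coefficient of variation of 58.6% in controls and 77.6% in hypoxic Sox17-deleted libraries, against 15.5% and 31.6% for Vim. Without hypoxic Sox17-deleted library 4 the log2 fold change of Fn1 was 0.68.

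**Figure D2:**
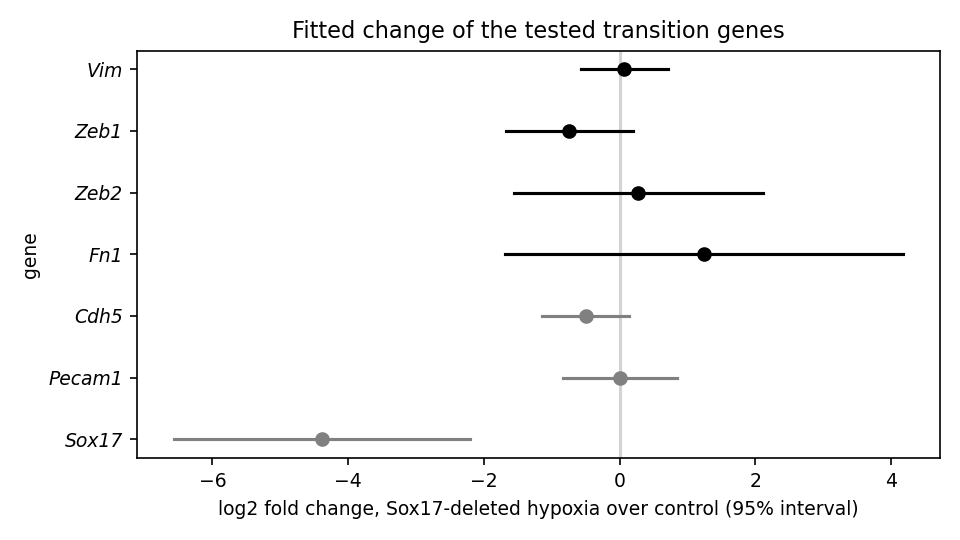
Fitted log2 fold change, hypoxic Sox17-deleted over control, with its 95% interval from the edgeR fit, for the 4 tested transition genes (black) and for Cdh5, Pecam1 and Sox17 (grey), with 4 libraries a group. The intervals of Vim, Zeb1, Zeb2 and Fn1 all include 0, and that of Fn1 is the widest of the 4 (−1.68 to 4.18).

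Hypoxic Sox17-deleted library 4, the highest for both Zeb2 and Fn1, also had the highest sum of fibroblast markers. Library 2 of that group was second for Fn1 and for those markers, but its 62.1 CPM of Zeb2 lay below controls 1, 3 and 4. Summed fibroblast markers, with all 16 present in some library, ranged from 562 to 751 CPM in controls and were 902, 2175, 975 and 9004 CPM in hypoxic Sox17-deleted libraries 1 to 4. Gsn, the gene of the actin-severing protein gelsolin, gave 8208 CPM of the sum in library 4. Without Gsn, a sum taken after its value was seen, the markers came to 269 to 333 CPM in controls and 433, 792, 318 and 796 CPM in the hypoxic Sox17-deleted libraries. Col14a1, a collagen gene of fibroblasts, had 0, 1, 0 and 22 counts in controls and 451, 388, 0 and 1053 counts in the other group (edgeR adjusted p = 0.890). Inmt stood at 91.8 ± 36.0 and 215 ± 107 CPM (edgeR adjusted p = 0.966). Of the defining markers, Pdgfra had 1, 49, 2 and 79 against 620, 20, 0 and 353 counts, Tcf21 had 0, 0, 373 and 18 against 0 in all 4, and Lum had at most 1 count in any of the 8 libraries. Dcn was the 1 tested fibroblast marker that was lower (log2 fold change −0.55). It had 716, 359, 832 and 956 counts in controls and 426, 862, 66 and 468 in the other group, so it was not raised in library 4. The sum for smooth muscle and pericyte markers was 116 to 191 CPM in controls against 148, 388, 234 and 764 CPM in hypoxic Sox17-deleted libraries, again highest in library 4. Myh11, the smooth muscle myosin gene, gave 496 CPM of the sum in library 4 and 210 CPM in library 2. Without Myh11, a sum taken after its value was seen, the markers came to 101 to 180.4 CPM in controls and 76.8, 178, 230.3 and 268 CPM in the other group. Tagln had 254, 152, 1 and 0 counts there, and Notch3 and Cspg4 were at 0 in all 4, as they were in 2 and 3 of the controls. Macrophage and monocyte markers, from cells that can also express Zeb2 and Fn1, came to 223 to 349 CPM in controls against 335 to 623 CPM in the other group, where library 4 had the lowest sum, and Adgre1 was at 0 throughout. In a pulldown from whole lung, more of such cells, more transcript per cell and a difference in the pulldown itself cannot be told apart. The part of these cells in the Zeb2 and Fn1 values was not tested.

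**Figure D3:**
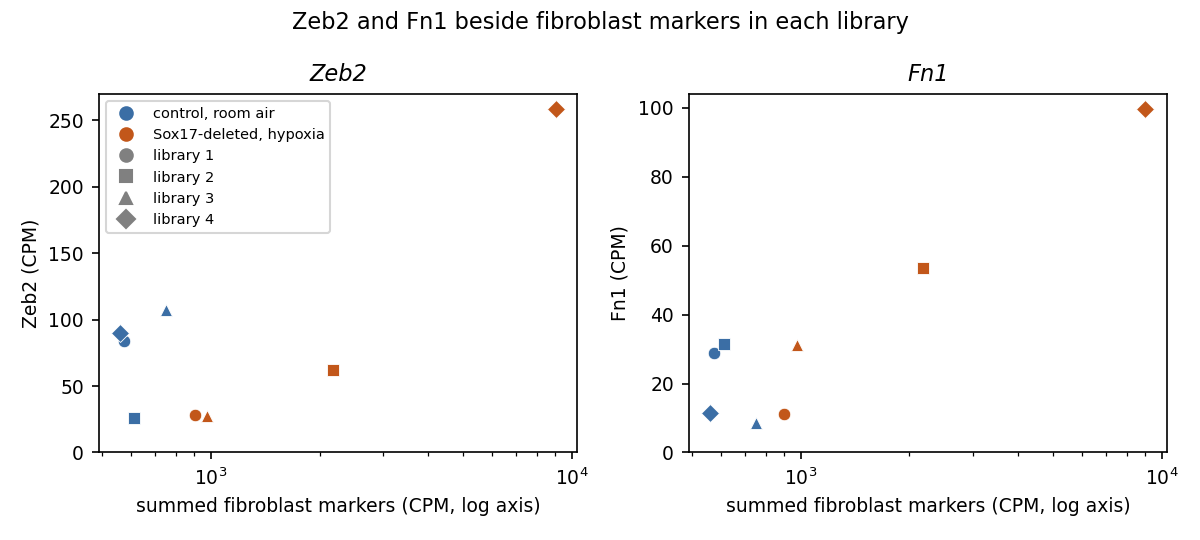
CPM of Zeb2 (left) and Fn1 (right) against the summed CPM of 16 fibroblast markers (log axis), with a point for every library, coloured by group and shaped by library number. Hypoxic Sox17-deleted library 4 is at the top right of both panels, at 9004 CPM of fibroblast markers with 259 CPM of Zeb2 and 99.6 CPM of Fn1.

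The ratio to Cdh5, the gene of vascular endothelial cadherin, was taken within each library, so that library size played no part. Cdh5 itself had 592 to 846 CPM in controls and 409 to 593 CPM in hypoxic Sox17-deleted libraries, with a log2 fold change of −0.50 (SE 0.30, edgeR adjusted p = 1.00). The log2 ratio of Vim to Cdh5 was 0.79 ± 0.43 in controls and 1.35 ± 0.61 in hypoxic Sox17-deleted libraries (SD, n = 4, two-sided exact permutation p = 0.200, adjusted p = 0.305). For Fn1 it was −5.42 ± 1.08 and −3.80 ± 1.54 (exact permutation p = 0.114, adjusted p = 0.305). The log2 ratio of Zeb1 was −0.96 ± 0.15 and −1.37 ± 0.63 (exact permutation p = 0.229, adjusted p = 0.305), and that of Zeb2 was −3.46 ± 0.72 and −3.12 ± 1.74 (exact permutation p = 0.743, adjusted p = 0.743). With Pecam1 in place of Cdh5 the difference for Vim was 0.23 rather than 0.56, and with the summed endothelial identity genes it was 0.11. The differences for Zeb1 were −0.75 and −0.87 with these references against −0.41 with Cdh5. Those for Fn1 were 1.29 and 1.17 against 1.62, and those for Zeb2 were 0.013 and −0.11 against 0.35. No adjusted exact permutation p with either reference was below 0.343. The groups overlapped for each of the 4 ratios to Cdh5, and 4 against 4 libraries cannot give a p below 0.0286.

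**Figure D4:**
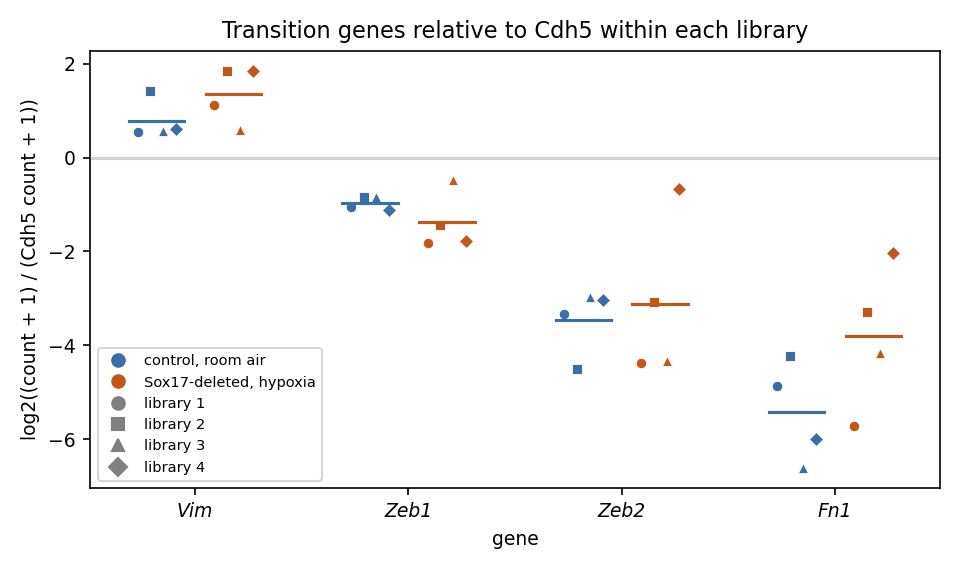
log2 ratio of the counts of Vim, Zeb1, Zeb2 and Fn1 to the counts of Cdh5, each plus 1, in every library, with bars at the group means. The mean ratio of Vim is 0.79 in controls and 1.35 in hypoxic Sox17-deleted libraries, and the points of the groups overlap for every gene.

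The other 5 genes missed the filter and were present in an on-or-off manner. Snai1 and Snai2 encode the zinc-finger repressors SNAIL and SLUG, which start transition programmes in development. Snai1 (chromosome 2, 167538195 to 167542814, plus strand) had 0, 395, 0 and 0 counts in controls and 371, 0, 18 and 0 counts in the hypoxic Sox17-deleted libraries. A single library in each group thus held nearly all of its counts, which is 35.7 CPM in control library 2 and 28.7 CPM in hypoxic Sox17-deleted library 1. Snai2 (chromosome 16, 14705852 to 14709385, plus strand) had 0, 0, 222 and 237 counts in controls and 0 in all 4 hypoxic Sox17-deleted libraries. Over the 40520621 counts of that group 3 counts are worth 0.0740 CPM. This is no upper limit on the level of Snai2, because its counts jumped between 0 and 237 within the controls. In 2 of the 4 controls it was at 0 as well. Fitted without a filter, Snai2 had an edgeR p of 0.0385 and an adjusted p of 0.360, where 11.4% of the 14071 genes so fitted had an unadjusted p under 0.05. DESeq2 gave it an adjusted p of 0.110.

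Twist1, the gene of a basic helix-loop-helix factor (chromosome 12, 33957671 to 33959829, plus strand), had 1 count in control library 4 and 0 in the other 7 libraries. It did not reach 3 counts in either group, which are worth 0.0664 CPM over all controls and 0.0740 CPM over the other group. With counts that jump between libraries, these values are no upper limit on its level. Cdh2 encodes N-cadherin, the cadherin gained when cells lose E-cadherin, which endothelium also carries away from its junctions. The gene (chromosome 18, 16588877 to 16809246, minus strand) had 0, 143, 1 and 0 counts in controls and 3, 0, 0 and 2 counts in the hypoxic Sox17-deleted libraries. Control library 2 held 143 of its 144 control counts. S100a4, whose product is also called fibroblast-specific protein although leukocytes make it too, had 0, 108, 5 and 70 counts in controls and 0, 185, 0 and 0 counts in the hypoxic Sox17-deleted libraries. Its gene (chromosome 3, 90603771 to 90606045, plus strand) overlaps the predicted coding gene Gm42674 on the same strand. Lymphocyte markers, of which 9 had a count in any library, came to 4.64 to 52.1 CPM in controls against 0 to 72.4 CPM in the other group. Gzma gave 72.0 CPM of the sum in library 4 and 44.1 CPM in library 2 of that group. Ptprc, the pan-leukocyte marker CD45, had 224, 8, 53 and 35 counts in controls and 0, 0, 0 and 1 in the others. Cd3d, Cd3g, Cd4 and Cd79b were at 0 in all 4 of the latter, but most controls were at 0 as well. Control libraries 1 to 4 had 0, 9, 0 and 136 counts of Cd3d and 0, 154, 0 and 0 of Cd3g. They had 0, 150, 0 and 0 counts of Cd4 and 291, 0, 0 and 0 of Cd79b.

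Such jumps between near 0 and many counts were common in these libraries. Of the genes with a mean of 5 to 20 CPM, 98.6% had a library with 5 or fewer counts and another with 50 or more, as did 98.7% of genes at 1 to 5 CPM. The share was 23.0% at 50 to 200 CPM and 0.296% above 200 CPM, the range of Vim and Zeb1. At 5 to 20 CPM, the range of Snai1, a value was 0 in 29.5% of cases in controls and in 49.6% in the hypoxic Sox17-deleted libraries. At 1 to 5 CPM, the range of Snai2, Cdh2 and S100a4 over all 8 libraries, the shares were 56.2% and 75%. A count of 0 for Snai1, Snai2, Cdh2 or S100a4 in a library was thus a frequent outcome at such levels, whatever the gene. The ranges follow the mean over all 8 libraries, which zeros lower. The shares are of single values and do not cover a gene at 0 in a whole group, as Snai2 was.

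Other factors of the transition programme, listed together with some of its antagonists, were mostly lower, without passing the test. Of 20 such genes, 15 had a count in any library and 8 were tested, with 1 higher, 7 lower, 0 called and a median log2 fold change of −0.67, against −0.01 over all tested genes, of which 50.4% were lower. Tcf4, which encodes an E protein that pairs with TWIST factors, had 975 ± 85.6 CPM in controls and 517 ± 45.4 CPM in hypoxic Sox17-deleted libraries (log2 fold change −0.89, SE 0.29, edgeR adjusted p = 0.407). Tcf4 was lower in 4 of 4 libraries with no overlap, as were 4.96% of all tested genes. Tcf3, another E protein gene, had 10, 471, 662 and 710 counts in controls and 3, 0, 1 and 1 in the hypoxic Sox17-deleted libraries (edgeR adjusted p = 0.386). Id2, whose product sequesters E proteins, stood at 91.6 ± 32.5 and 24.4 ± 47.3 CPM (edgeR adjusted p = 1.00). Its relatives Id1 and Id3 were also among the lower genes (log2 fold change −0.39 and −0.55), so the list's median does not describe drivers alone. Snai3, Twist2 and Gsc had 0 counts in all 8 libraries.

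Genes of the mesenchymal cytoskeleton were mixed in direction. Of 17 genes 14 were tested, with 9 higher, 5 lower, 0 called and a median log2 fold change of 0.31. Cald1, the gene of the actin-binding protein caldesmon, had 296, 183, 309 and 300.5 CPM in controls and 331, 648, 1201 and 569 CPM in the hypoxic Sox17-deleted libraries. All 4 of the latter lay above all controls, as they did for 1.63% of all tested genes. The log2 fold change of Cald1 was 1.39 (SE 0.42, edgeR adjusted p = 0.368). Nes, the gene of the intermediate filament protein nestin, stood at 183 ± 55.3 and 525 ± 357 CPM (log2 fold change 1.59, SE 0.54, edgeR adjusted p = 0.506), with library 2 of the hypoxic Sox17-deleted group below every control and the other 3 above them. The most abundant gene of the list was Tagln2, at 1931 ± 124 and 2402 ± 1268 CPM, and Tpm1, a tropomyosin gene, had 410 ± 58.4 and 571 ± 208 CPM. Acta2, the gene of smooth muscle actin and a usual endpoint of the transition, had 371, 120, 257 and 272 counts in controls and 62, 341, 126 and 179 counts in hypoxic Sox17-deleted libraries, with a log2 fold change of −0.28.

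Matrix and surface genes of mesenchymal cells were as mixed. Of 29 genes 19 were tested, with 11 higher, 8 lower, 0 called and a median log2 fold change of 0.12. Sparc, which encodes a collagen-binding matricellular protein and was the most abundant of the list, had 554, 1138, 893 and 739 CPM in controls and 1450, 1765, 2048 and 1402 CPM in the hypoxic Sox17-deleted libraries. The groups did not overlap, where 1.63% of all tested genes lay wholly higher, and the log2 fold change was 1.03 (SE 0.32, edgeR adjusted p = 0.386). Fibrillar collagen genes went apart: Col1a2 stood at 106 ± 95.2 and 320 ± 254 CPM (log2 fold change 1.54, edgeR adjusted p = 1.00) and Col1a1 had a log2 fold change of −2.13. Pdgfrb, a pericyte receptor gene also counted among the smooth muscle markers, had 3, 0, 139 and 0 counts in controls and 0, 967, 45 and 362 counts in hypoxic Sox17-deleted libraries.

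TGF-beta and BMP signalling genes, the inducers and brakes of the transition, had 15 of 18 genes tested, 2 higher, 13 lower, 0 called and a median log2 fold change of −0.92. Bmpr2, the BMP receptor gene most often mutated in heritable pulmonary arterial hypertension, stood at 1019 ± 382 and 541 ± 240 CPM (log2 fold change −0.90, SE 0.39, edgeR adjusted p = 0.855). Smad6, an inhibitor gene, had 446 ± 85.2 and 236 ± 159 CPM, and Tgfbr3, which encodes the co-receptor betaglycan, 117 ± 37.2 and 26.7 ± 26.2 CPM (edgeR adjusted p = 1.00 for both). The 2 higher genes were Tgfb2 (log2 fold change 3.10) and Tgfbr2 (0.44). Endothelial identity genes, which fall when the transition is complete, had 11 of 20 higher, 9 lower, 0 called and a median log2 fold change of 0.06. Eng, the gene of endoglin, stood at 452 ± 84.1 and 189 ± 103 CPM (log2 fold change −1.21, SE 0.46, edgeR adjusted p = 0.684), Egfl7 at 1883 ± 226 and 2812 ± 1418 CPM, and the most abundant, Ramp2, at 4384 ± 320 and 3215 ± 806 CPM. Bmpr2, Tgfbr3, Eng and Erg lay wholly lower in the hypoxic Sox17-deleted libraries, as did 4.96% of all tested genes.

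**Figure D5:**
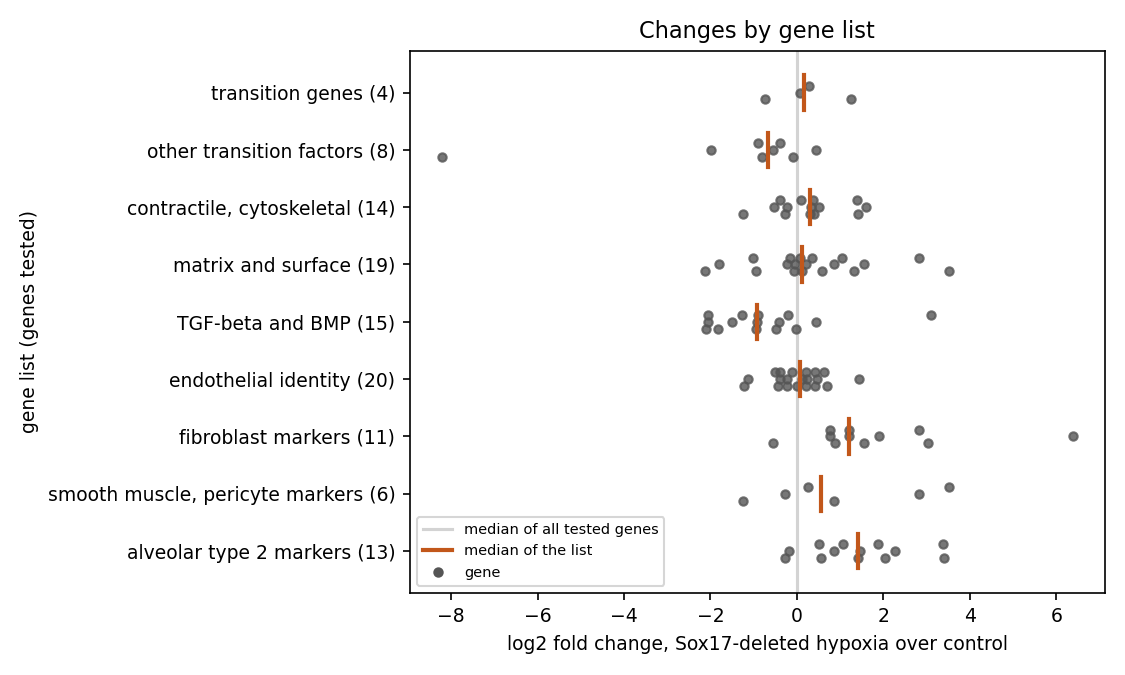
Fitted log2 fold changes, hypoxic Sox17-deleted over control, with a grey point for each tested gene, by gene list, the list's median as an orange bar and the median of all 8282 tested genes as a grey line. The median is 0.18 for the 4 tested transition genes, −0.92 for TGF-beta and BMP genes and 1.21 for fibroblast markers.

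Markers of other lung cells were mostly higher in the hypoxic Sox17-deleted libraries, without passing the test. Alveolar type 2 markers had 11 of 13 tested genes higher, with a median log2 fold change of 1.42 and a sum of 1161 ± 175 CPM in controls and 2854 ± 941 CPM in hypoxic Sox17-deleted libraries. Sftpc, a surfactant gene, had 476 ± 73.2 and 1308 ± 349 CPM (edgeR adjusted p = 0.313). Fibroblast markers had 10 of 11 tested genes higher (median 1.21), club and ciliated cell markers 6 of 6 (median 1.07), and smooth muscle and pericyte markers 4 of 6 (median 0.56). Macrophage and monocyte markers had 6 of 8 higher (median 0.84), alveolar type 1 markers 6 of 8 (median 0.39) and cardiomyocyte markers 1 of 3 (median −0.42). The sums of the last 2 lists went against their medians. Alveolar type 1 markers came to 2710.2 ± 273 and 2448 ± 464 CPM. Clic5 was lower, at 802 ± 117 and 459 ± 182 CPM, as was Emp2, the most abundant, at 1315 ± 150 and 1092 ± 471 CPM. Ager was higher, at 176 ± 2.76 and 330 ± 59.0 CPM, as was Aqp5, at 15.2 ± 17.5 and 66.4 ± 24.0 CPM. Cardiomyocyte markers came to 29.6 ± 12.5 and 182 ± 159 CPM, with Myh6 at 4.18 ± 5.31 and 137 ± 139 CPM. None of the lymphocyte or mesothelial markers was abundant enough to test. Sftpc, Sftpd, Scgb1a1, Ager and Aqp5 lay wholly higher in the hypoxic Sox17-deleted libraries, as did 1.63% of all tested genes. No gene of these lists was called. The part of such cells in the values of Vim, Cald1, Sparc and the other mesenchymal genes was not tested.

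The genes whose levels over the 8 libraries were most like those of a transition gene differed for each of the 3 most abundant. Among 3542 tested genes that averaged 50 CPM or more, Car4, which encodes a carbonic anhydrase of capillary endothelium, followed Vim most closely (Pearson r of log2(CPM + 1) = 0.94), with Psmd8 (0.94) and Sirpa (0.93) after it. Zeb1 was followed by Peg13 (0.94), Hpgd (0.94) and Arhgap29 (0.93). Zeb2 was followed by Kmt2c (0.91), Dnaja1 (0.91) and Rcc2 (0.91). These are the highest of 3542 correlations for each gene, over 8 libraries that share differences in depth and in other cell types, so they describe these libraries only.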

How the data were processed

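The authors deposited 1 table a library, holding unscaled read counts by gene symbol. RNA came from a pulldown of tagged lung ribosomes and was sequenced from the 3′ end with a QuantSeq kit, per the labels' protocols. The tools named are Bowtie2 and bedtools and the genome mm10, per the submitters' processing notes. Versions, strand and duplicate handling are not given in the sources used here. The 44 duplicate rows were summed, and none held a gene named here.

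CPM values divide counts by the library total. The test was edgeR 4.0.16 in R 4.3.3: TMM factors, filterByExpr, a model with group alone, the quasi-likelihood test and Benjamini-Hochberg adjustment over 8282 genes, with a call at an adjusted p under 0.05. The standard error is the log2 fold change over the square root of F. Scripts were tested on simulated data. Every pair of libraries differed beyond sampling noise (smallest chi-square per degree of freedom 188). Gene positions are from GENCODE M21 (GRCm38, also called mm10).

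Members and lists were chosen with earlier results of these data known. Named beside the members are genes from each list by a rule: the 3 with the lowest p and the most abundant. Not every such marker gene is printed. Id1, Id3, Acta2, Col1a1, Tgfb2, Tgfbr2, Erg, Dcn, Pdgfra, Tagln, Gzma, Ptprc and the markers at or near 0 were named after their values were seen. Alternatives were other scaling, filters and tools (DESeq2 1.42.0, limma 3.58.1), a block, and leaving out libraries.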

Additional observations from a re-analysis of the deposited data

Results flagged for a closer look

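In 6 of 16 gene and group combinations examined, 1 of the 4 libraries lay far above the other 3, by Dixon's test of the gap to the nearest library over the whole range. Chance alone marks about 1 in 20 such groups, and a gene near 0 in most libraries is marked easily. Zeb2 had 259 CPM in hypoxic Sox17-deleted library 4, where the next library had 62.1 CPM. Snai1 had 35.7 CPM in control library 2, with 0 in the other 3, and 28.7 CPM in hypoxic Sox17-deleted library 1, with 2.57 CPM in the next. Cdh2 had 12.9 CPM in control library 2, where the next library had 0.0859 CPM. S100a4 had 19.6 CPM in hypoxic Sox17-deleted library 2, with 0 in the other 3. Twist1 had 0.0841 CPM in control library 4, which is 1 count.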

How the results depend on the processing

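No transition gene was called in any of the 18 alternatives, which tested from 2 to 9 of the 9 genes. Zeb1 stayed lower in all 18 (log2 fold change −1.30 to −0.51), and Fn1 stayed higher in the 17 that tested it (0.68 to 1.59). The signs of Vim, Zeb2, Snai1 and S100a4 were not stable. Vim was at −0.0011 with upper-quartile factors and ran from −0.062 to 0.21 with a library left out, lowest without hypoxic Sox17-deleted library 2. Zeb2 was at −0.075 with limma-voom, −0.17 with the replicate number as a block, −0.01 without control library 2 and −0.94 without hypoxic Sox17-deleted library 4, up to 0.59 without library 1 of that group. Snai1, at −0.15 without a filter, was at 0.72 with hypoxic Sox17-deleted libraries 2 to 4 summed and at 0.24 without library 2 or library 4 of that group, down to −0.59 without control library 3. S100a4, at 0.19 without a filter, was at −0.24 with those libraries summed, −0.24 without control library 1 and −0.18 without control library 3, up to 0.62 without hypoxic Sox17-deleted library 4. Twist1 and Cdh2 could be refitted with DESeq2 only, which kept their sign but gave them no adjusted p. The ratio of Zeb2 to Cdh5 (0.35) was −0.11 against the summed endothelial genes, and −0.47 to 0.77 over the fits that leave out 1 library each. The count of called genes over the whole table, 0 in the main fit, was 17 without a filter, 4 among genes averaging 100 CPM or more, 473 with DESeq2, 44 with limma-voom, 1 with robust estimation, 1 with the 3 libraries summed, and 0 to 5 with a library left out, the 5 without hypoxic Sox17-deleted library 1. The cause of these differences was not tested. With the replicate number as a block the count was 0 and 428 genes had an unadjusted edgeR p under 0.05. Same-numbered libraries deviated from their group means together at r = −0.02 to 0.02, so no pairing by number was seen. With counts that jump this much between libraries, a weak pairing could be missed. Most genes under 50 CPM have counts that jump between near 0 and high values, which limits what can be said of them.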

Other observations

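Integrin genes for receptors of fibronectin, the product of Fn1, were chosen after their values were seen. Itgav, the alpha-V subunit gene, had 435, 6, 219 and 23 counts in controls and 0 in all 4 hypoxic Sox17-deleted libraries. By its mean over all 8 libraries, which the zeros themselves lower, it lies in the range where 49.6% of single values in that group were 0. The share of genes at 0 in all 4 libraries was not computed. Itga5, whose product pairs with beta-1 in the main fibronectin receptor, had 0, 194, 64 and 0 counts in controls and 465, 0, 0 and 0 in the other group. Itgb3, the beta-3 subunit gene, had 173, 189, 9 and 82 counts in controls and 0, 0, 237 and 774 in the other group. Itgb1, the beta-1 subunit gene, stood at 611 ± 93.2 and 656 ± 139 CPM (SD, n = 4, edgeR adjusted p = 1.00).

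Among relatives of the other transition genes, S100a16 was the most abundant S100 gene looked at, at 681 ± 132 and 580 ± 201 CPM. The neutrophil gene S100a8 reached 3186 counts in library 1 of the hypoxic Sox17-deleted group, with 0 in its libraries 2 and 3. Cdh13, the gene of T-cadherin, had 467, 547, 1011 and 498 counts in controls and 0, 78, 1 and 755 in the hypoxic Sox17-deleted libraries (log2 fold change −1.58, SE 1.83, edgeR adjusted p = 1.00). Cdh1, the epithelial cadherin gene that SNAIL and ZEB factors repress, had 1024, 302, 345 and 802 counts in controls and 0, 782, 829 and 2148 in the hypoxic Sox17-deleted libraries, with overlapping groups.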
